A study of Rattus norvegicus with 24 samples.

Results

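Healthy female Wistar rats, called NOCIA because collagen-induced arthritis (CIA) was not raised in them, gave 6 of the 24 arrays of the series. They were chosen by their titles, which name the healthy arm, and fell into 3 groups of 2 arrays: before therapy, at 1 hour and at 34 days. No needle, drug or saline was given as therapy to NOCIA animals, which were shaved like all other rats. The 3 times therefore mark the study's calendar and not a dose. Blood was drawn under deep general anaesthesia. All groups were peripheral blood mononuclear cells (PBMC) separated on Ficoll from the whole blood of an animal that was then sacrificed, so each array was a different rat and no rat was followed over time. For the 34-day animals 1 line of the description names 1 hour where the title and a second line name 34 days, and 34 days was used. The arrays before therapy and at 34 days shared a slide and the 1-hour arrays lay on another, so time and slide cannot be told apart at 1 hour. In the main fit all 24 arrays set the scaling, the choice of miRNAs tested and the spread behind every standard error (SE), interval and p-value. Arthritic groups were compared with NOCIA only for the difference of changes. On the first slide these were CIA before therapy and CIA at 34 days in the arm bled under isoflurane (ANE). On the second it was CIA 1 hour after a saline injection (PLA). The paper gives ether as the agent for PLA and names none for NOCIA.

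MicroRNAs (miRNAs) are short RNAs that pair with messenger RNAs, chiefly through the seed near their 5′ end, and lower translation or stability of the target. Blood cells carry a characteristic set. The pair miR-142-3p and miR-142-5p marks leukocytes in general, miR-150 and the miR-181 family lymphocytes, miR-223 myeloid cells, and miR-451 with miR-144 the red cell lineage. The let-7 family restrains growth genes and accumulates in differentiated cells.

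Mature sequences from RefSeq (build GRCr8) are shown for the miRNAs that were brightest on these arrays, with the seed (bases 2 to 8) in capitals. The brightest 10 also included miR-150.
miR-21: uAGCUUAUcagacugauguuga
miR-451: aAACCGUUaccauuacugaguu
miR-142-3p: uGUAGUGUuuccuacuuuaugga
miR-16: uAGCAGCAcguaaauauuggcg
miR-15b: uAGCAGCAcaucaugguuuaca
let-7f: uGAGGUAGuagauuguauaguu
let-7a: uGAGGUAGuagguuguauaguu
miR-26a: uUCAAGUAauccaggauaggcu
miR-223: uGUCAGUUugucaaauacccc
Among these, miR-16 and miR-15b share 1 seed, and let-7f and let-7a another. In GRCr8 miR-15b lies at chr2:155555197-155555218 and miR-16 at chr2:155555343-155555364, both on the plus strand. On the plus strand of chromosome 17 lie let-7a at chr17:16320145-16320166, let-7f at chr17:16320508-16320529 and let-7d at chr17:16322273-16322294, and let-7a and let-7f each have a second copy elsewhere.

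The rest of the let-7 family is shown because every NOCIA array detected all 8 of its members and differ by few bases, which limits how far a probe can separate them.
let-7b: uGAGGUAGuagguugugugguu
let-7c: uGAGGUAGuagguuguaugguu
let-7d: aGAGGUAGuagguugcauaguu
let-7e: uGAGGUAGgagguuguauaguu
let-7i: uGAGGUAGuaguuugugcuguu
miR-98: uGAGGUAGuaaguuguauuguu
Compared with let-7a over 22 bases, let-7c, let-7e and let-7f differ at 1 base, let-7b, let-7d and miR-98 at 2, and let-7i at 4. Their separate levels are therefore uncertain.

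The miRNAs called between times were other, dimmer ones, and their sequences are given for reference beside the values that follow.
miR-122: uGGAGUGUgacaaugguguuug
miR-3593-3p: cUUCAACCuuaagggggccuca
let-7b*: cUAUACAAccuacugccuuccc
miR-3544: aACUCCUGcaugacgccguuccc
miR-298: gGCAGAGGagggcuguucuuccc
None of these 5 seeds is shared with another of them. miR-122, the dominant liver miRNA, lies at chr18:61028831-61028852 on the plus strand, and miR-3593-3p at chr6:78987770-78987791 on the minus strand. The asterisk of let-7b* marks the other arm of the let-7b hairpin.

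Each value is the total signal of a miRNA on a one-colour array, scaled between arrays and given on a log2 scale. The order of miRNAs is an order of brightness on the array, since different probes bind differently. The scanner software's flag decides detection. The 6 NOCIA arrays had 145 to 178 detected miRNAs, against 145 to 207 over the series, and before scaling their summed signal ran from 137544 to 226165. The arrays before therapy were lowest in both, with 148 and 145 detected miRNAs and summed signals of 137544 and 138064. At 1 hour both arrays had 178, and at 34 days 173 and 170.

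The array held 677 rat miRNAs. All 6 NOCIA arrays detected 136 of them, 59 were detected on 1 to 5 of these arrays and 482 on none. Of the 136, 132 were also detected on every other array of the series. The other 4 were miR-150*, miR-181a-1*, miR-211* and miR-383. A further 9 miRNAs were detected on all 4 arrays at 1 hour and 34 days and on neither array before therapy, namely miR-125b-3p, miR-193, miR-194, miR-196b, miR-21*, miR-3593-3p, miR-362, miR-421* and miR-7b. The arrays before therapy also had the fewest detected miRNAs, and the part of that in these 9 patterns was not tested.

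The profile was dominated by few miRNAs. The brightest miRNA held 10.3% to 15.6% of an array's summed signal, the brightest 10 held 52.4% to 59.1% and the brightest 20 held 76.4% to 78.3%. miR-21, which is induced in activated leukocytes, was the brightest on 5 arrays, with log2 levels of 14.55 and 14.54 before therapy, 14.98 and 14.44 at 1 hour, and 14.36 and 14.46 at 34 days. The 3 pairs overlapped in part, and the 1-hour array of replicate 1 was the highest.

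The red cell miRNA miR-451 ranked second and was the least steady of the bright miRNAs. Its levels were 13.39 and 13.51 before therapy, 13.69 and 15.16 at 1 hour, and 12.81 and 13.66 at 34 days. The 1-hour array of replicate 2 stood far above the other 5, where miR-451 was the brightest miRNA of all, and the 34-day array of replicate 1 stood below them. Between 1 hour and 34 days its difference was -1.19 (log2, SE 0.94, limma adjusted p 0.868), with an interval from -3.21 to 0.83.

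Among the other bright miRNAs, the leukocyte marker miR-142-3p had levels of 13.43 and 13.55 before therapy, 13.66 and 13.44 at 1 hour, and 13.40 and 13.49 at 34 days, so the groups overlapped. let-7f had 13.37 and 13.39, then 13.43 and 13.49, then 13.53 and 13.40. Its 34-day and 1-hour pairs overlapped, and both stood slightly above the pair before therapy. miR-150, which restrains lymphocyte maturation, ran from 12.44 on a 34-day array to 13.30 on a 1-hour array. The myeloid miR-223 had levels of 12.59 and 12.83, then 12.54 and 12.69, then 12.97 and 12.98, with the 34-day pair above the other 4 arrays. That last difference from before therapy was 0.27 (log2, SE 0.25, limma adjusted p 0.811).

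**Figure D1:**
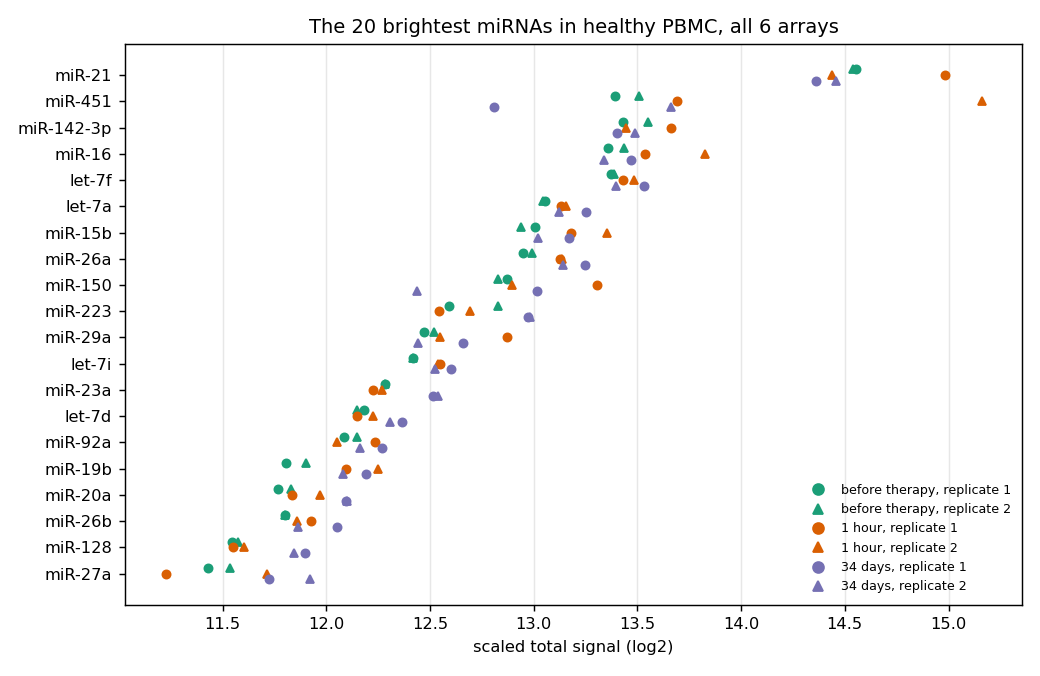
Scaled total signal (log2, horizontal axis) of the 20 miRNAs with the highest mean over the 6 NOCIA arrays, with 1 point for each array, colour for the time and shape for the replicate. miR-21 leads on 5 arrays, and miR-451 spreads from 12.81 to 15.16 while its neighbours in the order lie close together.

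The order of brightness was compared over the 136 miRNAs. Of the 10 brightest at each time, 9 were shared by all 3 times and 11 appeared at any time. A miRNA moved by a median of 4 places between its highest and lowest rank, 81 of 136 moved by 5 or fewer, and none of the brightest 20 moved by more than 3. Only 4 moved by over 20 places: miR-3588 (place 37 before therapy, 47 at 1 hour and 72 at 34 days), miR-484, miR-3558-3p and miR-144*. Spearman's rho across miRNAs, which share arrays and scaling, is given as a description. Between the means before therapy and at 1 hour it was 0.992. The means before therapy and at 34 days gave 0.986, and those at 1 hour and 34 days 0.983. The 2 animals of 1 time, compared as single arrays and not as means, gave 0.985 to 0.991.

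The median absolute difference between the 2 animals of a time was 0.08 (log2) before therapy, 0.21 at 1 hour and 0.14 at 34 days. Between the means of times it was 0.14 for before therapy against 1 hour, 0.24 for before therapy against 34 days and 0.21 for 1 hour against 34 days. These 2 sets of values overlapped in size, but means of 2 arrays vary less than single arrays, so they are not like for like. On the slide shared by before therapy and 34 days, the difference between times (0.24) exceeded both differences between animals (0.08 and 0.14).

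Stability was described by the range of the 3 time means. Its median over the 136 miRNAs was 0.29 (log2), with 102 under 0.5 and 13 over 1. The 5 smallest ranges belonged to miR-423*, miR-378, miR-142-5p, miR-34a and let-7f, from 0.064 to 0.084. These are ranges of means and leave out the spread between animals. At 1 hour the 2 animals had 10.25 and 9.82 for miR-142-5p and 7.10 and 7.32 for miR-378, but 5.38 and 5.40 for miR-423*. miR-34a, a target of p53, had levels of 7.67 and 7.73, then 7.88 and 7.69, then 7.61 and 7.89. A stricter measure was whether the 95% interval of all 3 differences stayed within 2-fold, which 77 of the 136 met: 38 of the brightest 45, 29 of the next 45 and 10 of the dimmest 46. The count moved with the processing: it was 6 with no scaling, 0 with the percentile taken over all miRNAs and 116 with normexp background correction, and 56 to 61 when any 1 array was left out. With only the arrays compared the count was 96. Dim miRNAs had wider intervals, with a median half-width of 0.90 against 0.47 for the brightest 45, so failing this measure does not show a change.

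The largest range was that of miR-3588, which lies at chr11:29732588-29732609 on the minus strand. The plus strand of the same bases carries miR-125b-5p, so the mature sequences of the pair are reverse complements. Levels of miR-3588 were 9.72 and 9.52 before therapy, 9.86 and 8.89 at 1 hour, and 8.04 and 7.31 at 34 days. The 34-day arrays were below the other 4. The difference from before therapy, within a single slide, was -1.95 (SE 0.73, limma adjusted p 0.591). With only the arrays compared its SE was 0.30 and its limma adjusted p 0.0616. The next largest ranges were those of miR-125a-3p, miR-484, miR-3558-3p and miR-488, with means over 6 arrays of 4.73, 5.10, 6.22 and 4.01. miR-484 had 4.42 and 4.55 before therapy, 6.94 and 5.195 at 1 hour, and 4.59 and 4.90 at 34 days, and 1 array carried most of its 1-hour mean. Its 1-hour difference was 1.58 (SE 0.61, limma adjusted p 0.346). miR-125a-3p had 3.26 and 4.42, then 5.02 and 5.99, then 4.33 and 5.37, and its 1-hour difference of 1.66 (SE 0.46) had a limma adjusted p of 0.104. Without the array before therapy of replicate 2 that difference was 2.24 (limma adjusted p 0.0263), without replicate 1 of that group 1.08 (0.666), and without replicate 2 at 1 hour 1.18 (0.832).

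**Figure D2:**
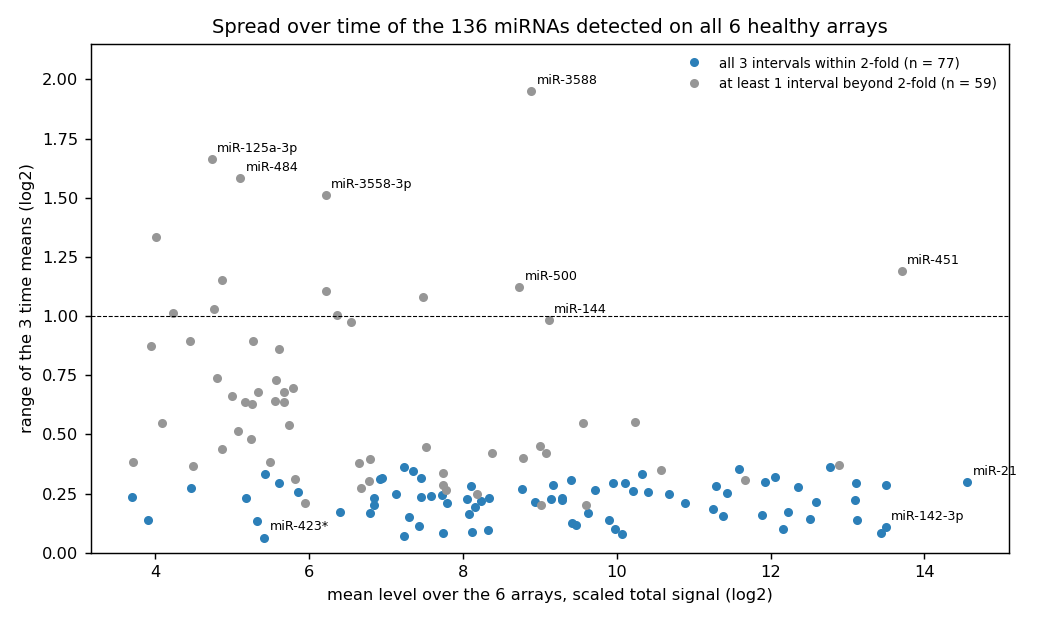
Range of the 3 time means (log2, vertical axis) against mean level over 6 arrays (log2, horizontal axis) for the 136 miRNAs detected on all 6 NOCIA arrays, blue where all 3 intervals lay within 2-fold (77) and grey where not (59). Most bright miRNAs lie under 0.5, and miR-3588 and miR-451 stand out among those of medium and high level.

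Markers of blood cells were present, and other tissues' markers varied. Of the leukocyte list, miR-142-3p and miR-142-5p were detected on all 6 arrays, as were all 7 lymphocyte and both myeloid miRNAs. The array held no miRNA under the names miR-155, of the leukocyte list, or miR-486, of the red cell list. Both detected leukocyte and both myeloid miRNAs had intervals within 2-fold, and of the 7 lymphocyte miRNAs miR-181a, miR-181b and miR-181c did. Over all 136 miRNAs detected on all 6 arrays the count was 77, and 38 of the brightest 45. Ranges of the time means were 0.14 to 0.38 for the lymphocyte and 0.12 to 0.36 for the myeloid miRNAs. The counts therefore do not show that lymphocyte miRNAs were less steady. Of the red cell list, miR-451 and miR-144 were detected on all 6 arrays, and of the platelet list miR-126 was and miR-126* was not. All 6 muscle miRNAs and the endocrine one were detected on none, 1 of 4 brain miRNAs on 1 array (miR-219-5p), 1 of 7 epithelial miRNAs on 2 arrays (miR-203), and the liver miRNA miR-122 on 3. Of 3 miRNAs abundant in kidney and gut, miR-192 was detected on all 6 arrays, miR-194 on 4 and miR-215 on none. In bulk samples fewer cells of a type and less RNA per cell cannot be told apart.

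Red cell miRNAs were high and low on the same arrays. miR-144 had levels of 9.11 and 8.997, then 9.39 and 9.88, then 8.23 and 9.07, and miR-144* had 7.33 and 7.27, then 7.36 and 8.88, then 6.59 and 7.48. Like miR-451, both were highest on the 1-hour array of replicate 2 and lowest on the 34-day array of replicate 1. All 3 come from the same stretch of chromosome 10, with miR-144* at chr10:63459409-63459431, miR-144 at chr10:63459446-63459465 and miR-451 at chr10:63459585-63459606. miR-451 and miR-144 together held 5.90% and 6.19% of summed signal before therapy, 6.35% and 16.01% at 1 hour, and 3.65% and 6.67% at 34 days. The 2 shares at 1 hour lay further apart than the means of any 2 times, and the part of red cells left in a preparation was not tested.

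**Figure D3:**
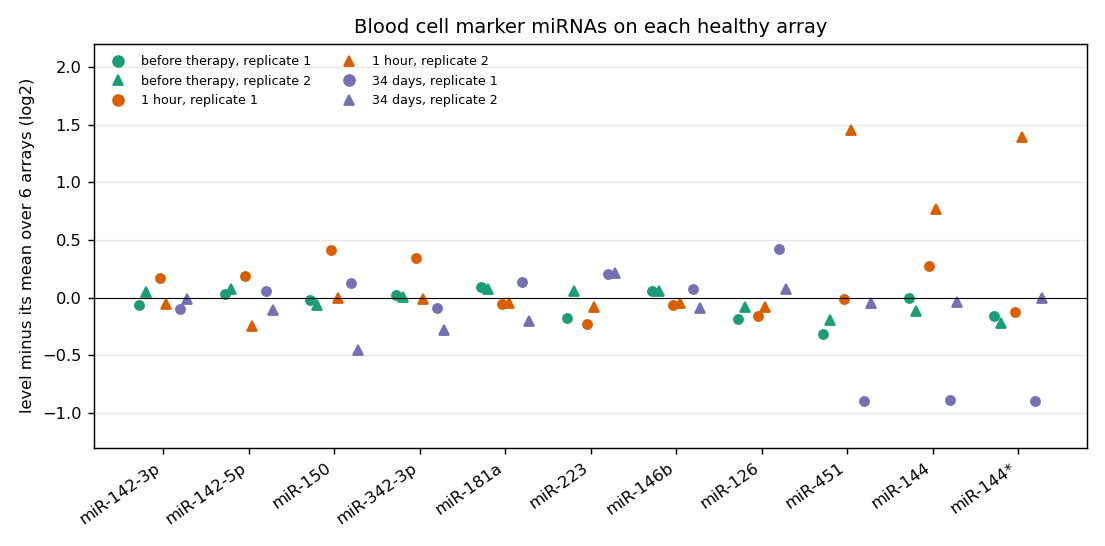
Level of 11 blood cell marker miRNAs on each NOCIA array minus the mean over the 6 arrays (log2, vertical axis), coloured by time. Leukocyte, lymphocyte, myeloid and platelet markers stay within 0.5 of their means, while miR-451, miR-144 and miR-144* lie high on 1 array at 1 hour and low on 1 array at 34 days.

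Most family members stayed within 2-fold. All 8 let-7 members had intervals within 2-fold, with ranges from 0.084 to 0.25, and together held 16.1% to 19.2% of summed signal. The miR-17-92 cluster, which promotes lymphocyte proliferation, had 5 of 6 members within 2-fold, the miR-15/16 family, which restrains the cell cycle, 3 of 4, and the miR-23/27/24 clusters, miR-29, miR-30 and miR-26 families 5 of 5, 3 of 3, 5 of 5 and 2 of 2. Of 8 inflammation miRNAs on the array, 5 were within 2-fold and none was called at either time. Over all 136 the count was 77, and since it was 0 with the percentile over all miRNAs and 6 with no scaling, no family kept these counts under the first of these and let-7 lost members under both. miR-146a, a brake on innate signalling, ran from 8.71 to 9.69 while miR-146b, which has the same seed, ran from 7.34 to 7.498.

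Sequences were matched for 108 of the 136 miRNAs, which held 74 distinct seeds, 16 of them shared by 50 miRNAs. The largest groups were let-7 with 8, and the groups of miR-17-5p and miR-16 with 5 each. The 5 of the miR-17-5p group (with miR-20a, miR-20b-5p, miR-93 and miR-106b) had ranges from 0.21 to 0.33 and were all within 2-fold. In the group of miR-16 the ranges ran from 0.28 to 0.86.

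Tests over 210 miRNAs (those detected on at least 3 of the 24 arrays) called few miRNAs. At 1 hour against before therapy 5 were called (2.38% of those tested), 4 higher (1.9%) and 1 lower (0.476%), with 19 at an unadjusted p under 0.05. At 34 days against before therapy, within 1 slide, 2 were called (0.952%), 1 in each direction, with 14 at an unadjusted p under 0.05. At 34 days against 1 hour 3 were called (1.43%), all lower, with 16. A test of any difference among the times called 5 (2.38%), with 18. limma called 0 of the miRNAs that were detected on every array compared (137, 136, 156 and 136), of which 4, 6, 7 and 6 had an unadjusted p under 0.05. All calls were therefore undetected on at least 1 array compared. At the study's threshold (over 2-fold, unadjusted p under 0.05, detected on every array compared) 2 miRNAs passed at 1 hour (0.952%), 2 at 34 days against before therapy (0.952%) and 6 at 34 days against 1 hour (2.86%). The first were miR-125a-3p and miR-484, the second miR-125a-3p and miR-3588, and the third miR-1*, miR-10a-5p, miR-3588, miR-484, miR-488 and miR-652*.

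miR-122 was the clearest. It was at 7.76 and 7.73 before therapy, undetected and 3.85 at 1 hour, and undetected on both arrays at 34 days. Both early arrays stood far above the other 4. At 34 days it was at least 37.0-fold lower than before therapy (limma adjusted p 0.00177), and at 1 hour, where 1 of 2 arrays detected it, the fitted difference was -4.56 (SE 0.81, limma adjusted p 0.0035). Without the 1-hour array of replicate 1 that p was 0.0568, with the mean spot signal 0.179, with the authors' log2 values 0.0572 and with normexp 0.692. The unscaled mean of its 20 spots was 110 and 105 before therapy, 7.03 and 11.7 at 1 hour and 5.93 and 6.52 at 34 days. From that mean after scaling, the 34-day difference was -4.70 (limma adjusted p 0.0326). From the authors' log2 table it was -4.01 (0.0291), whereas normexp on the median spot signal gave -1.63 (0.053). Outside NOCIA, miR-122 was detected on 6 of the other 18 arrays. The 2 ANE arrays at 1 hour were at 8.96 and 5.43, the first above both NOCIA arrays before therapy. The list held no other liver miRNA, and the part of liver RNA in the plasma or cells was not tested.

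miR-3593-3p was detected on neither array before therapy and on all 4 later ones, and on all 18 arrays of the other groups. It was at 5.11 and 5.199 at 1 hour (at least 4.06-fold higher, limma adjusted p 0.000282) and 5.39 and 5.17 at 34 days (at least 4.43-fold higher). The unscaled mean of its spots was 9.92 and 12.3 before therapy, 17.9 and 20.9 at 1 hour and 30.4 and 28.7 at 34 days. These means were lowest before therapy. With the mean spot signal the 34-day difference was 0.83 (limma adjusted p 0.577), and with normexp on the median spot signal the sign turned, to -0.039 at 1 hour and -0.26 at 34 days (limma adjusted p 0.988 and 0.299).

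In total signal, miR-298, miR-3544 and let-7b* stood higher at 1 hour than at either other time. let-7b* was detected on both 1-hour arrays, at 4.47 and 4.38, and on no other NOCIA array. Its scaled total signal at 1 hour was at least 2.45-fold above before therapy and at least 3.71-fold above 34 days. miR-3544 had the same pattern, at 4.77 on both 1-hour arrays, at least 3.103-fold and at least 4.70-fold above. miR-298 was at 4.92 and 4.24 at 1 hour, undetected and 3.22 before therapy, and undetected and 2.60 at 34 days. Of the other 18 arrays, 9 detected let-7b*, 7 miR-3544 and 11 miR-298. The 1-hour arrays of PLA, methotrexate and mechanical stimulation rats shared the slide of the 1-hour NOCIA arrays. All of them detected miR-3544 and miR-298. The ANE arrays at 1 hour, on another slide, detected neither miR-3544 nor let-7b*, and 1 of them detected miR-298. Slide and time cannot be told apart here.

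The spots of these 3 miRNAs gave smaller differences. For let-7b* the unscaled mean spot signal was 13.0 and 12.4 before therapy, 14.2 and 14.9 at 1 hour and 11.0 and 14.1 at 34 days. For miR-3544 it was 13.0 and 11.9, then 13.6 and 14.7, then 9.15 and 14.7. For miR-298 it was 17.8 and 13.7, then 15.7 and 13.7, then 11.7 and 15.5. In these unscaled values the 1-hour pairs of let-7b* and miR-3544 stood above the pairs before therapy, while the 3 pairs of miR-298 overlapped. The deposited total signal of an undetected miRNA equals its error value, in all 12046 cases over the 24 arrays, so a step from undetected to detected can be larger in total signal than in the spots. With the mean spot signal scaled between arrays, the differences at 1 hour were 0.08 for let-7b*, 0.07 for miR-3544 and -0.21 for miR-298. Those of 34 days against 1 hour were -0.70, -0.76 and -0.60 (limma adjusted p 0.913 each). Because of the scaling these differences need not match the unscaled values above. limma called none of the 3.

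**Figure D4:**
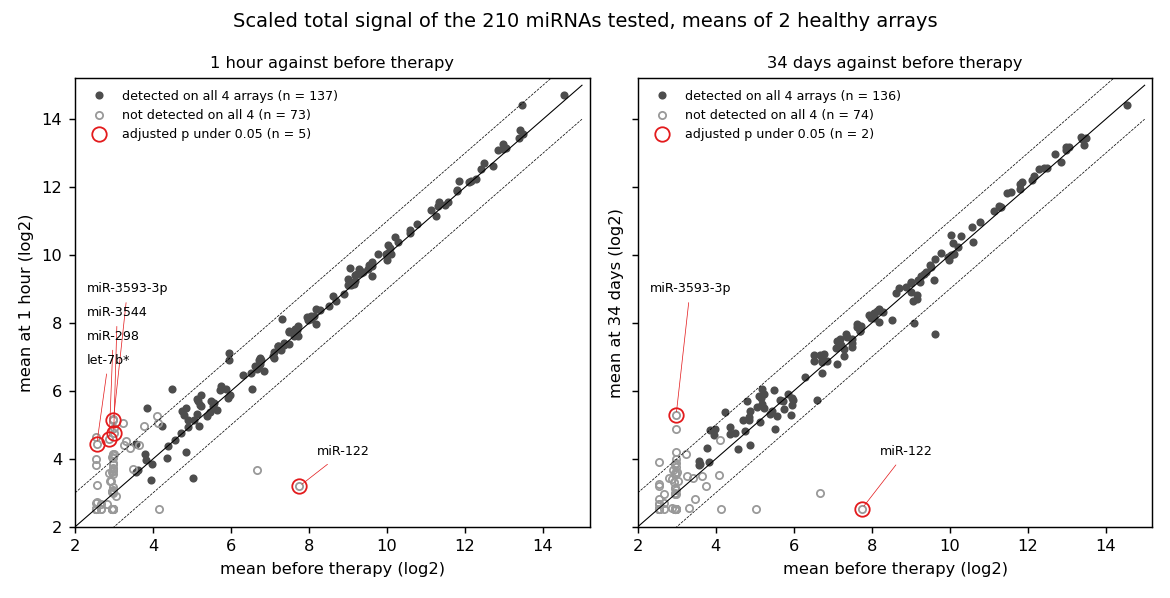
Mean scaled total signal (log2) at 1 hour (left) and 34 days (right) against before therapy for the 210 miRNAs tested, filled where all 4 arrays detected the miRNA, open otherwise, red rings for adjusted p under 0.05, dashed lines at 2-fold. All ringed miRNAs are open points, and most filled points lie between the dashed lines, with 4 beyond them in each panel, miR-125a-3p in both.

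**Figure D5:**
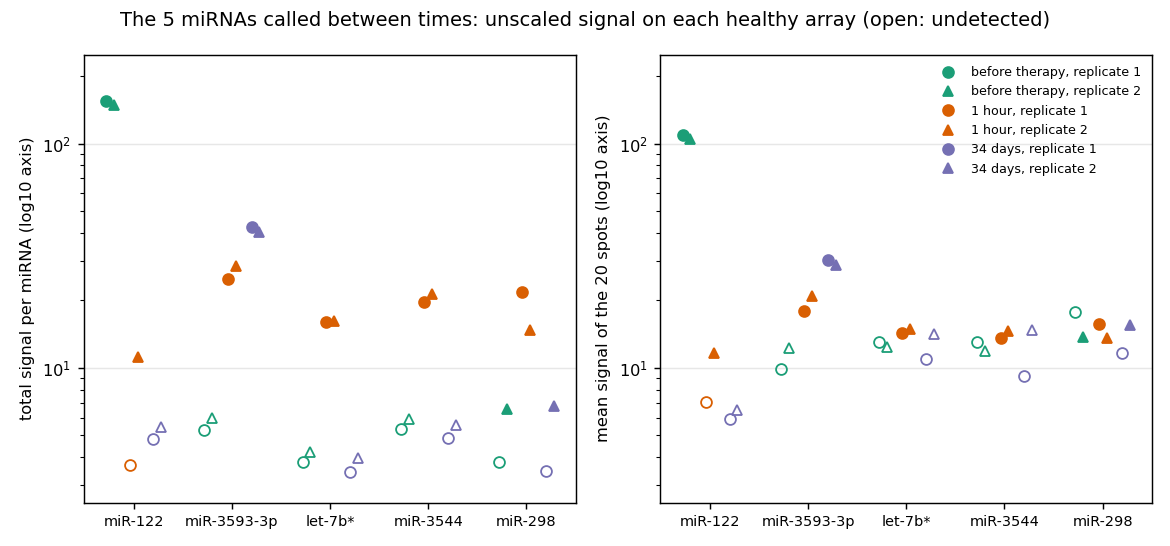
Unscaled total signal (left) and mean signal of the 20 spots (right), both on log10 axes, of the 5 called miRNAs on each NOCIA array, open where undetected. miR-122 separates in both panels, while let-7b*, miR-3544 and miR-298 separate at 1 hour in the left panel and overlap or nearly overlap in the right.

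Whether these changes differed from those in arthritic rats was tested as a difference of changes. Against ANE, all on 1 slide, 2 of 210 were called at 34 days (0.952%, with 7 at an unadjusted p under 0.05), and against PLA 1 at 1 hour (0.476%, with 13). CIA rats before therapy are shared by both tests. ANE rats were bled under isoflurane and PLA rats had a saline injection, so arthritis cannot be told apart from either. miR-122 was undetected on both CIA arrays before therapy and reached 3.92 on 1 of 2 ANE arrays at 34 days, giving a difference of -5.83 (SE 1.14, limma adjusted p 0.0182), and 3.69 and 4.26 in PLA at 1 hour, giving -5.92 (SE 1.14, limma adjusted p 0.0315, or 0.0521 with the replicate number as a block). miR-3593-3p was at 5.28 and 4.87 in CIA before therapy and 5.25 and 5.00 in ANE at 34 days, giving 2.25 (SE 0.40, limma adjusted p 0.0153). The NOCIA side of each rests on the 2 arrays before therapy, and without either of them no difference of changes was called. None was called with the mean spot signal, normexp, the authors' log2 table or the percentile over all miRNAs either, and with normexp that of miR-3593-3p turned to -0.11.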

How the data were processed

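PBMC small RNA from 24 rats was hybridised to Agilent one-colour miRNA arrays. The authors deposited scanner files whose total gene signal is an intensity, made with Agilent Feature Extraction 10.7, and a table of log2 values. The study's methods name the AgiMicroRna package for summarizing the signals and the submitters' processing notes name RMA. The deposited log2 table served as an alternative. Total intensity was scaled to a common 75th percentile over 132 miRNAs detected on all 24 arrays (factors 0.452 to 1.42), floored at 5.76 (log2 2.53) and log2 transformed. One model of 12 group means was fitted with limma 3.58.1 in R 4.3.3 to the 210 miRNAs detected on at least 3 arrays, with 12 residual degrees of freedom, Benjamini-Hochberg adjustment over 210 and calls under 0.05. Having 2 arrays a group limits precision, and p-values measure the spread between separate rats. "At least" folds set an undetected array at the highest of its lowest detected signal, its own value and the floor. They bound the scaled total signal only, and the mean of the spots gave smaller differences. The floor was added to this bound after its values, and those of an earlier analysis, were seen. Without it the calculation gave 38.5 for miR-122, 3.86 for let-7b* and 4.89 for miR-3544, which exceed the folds between the floored group means and are no bounds on that scale. Called miRNAs, the 5 largest and smallest ranges and the brightest 10 were named. Members, lists and tests were chosen with earlier results of these data known. The fit was tested on simulated data, drawn as normal values around the mean of each miRNA. These had no floor and no undetected values, so they did not cover the step from undetected to detected behind the calls. Alternatives changed scaling, background, filter, floor, signal summary, arrays, block and threshold.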

Additional observations from a re-analysis of the deposited data

Results flagged for a closer look

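The change of miR-122 from before therapy to 34 days differed between NOCIA and CIA animals of the ANE arm by -5.83 (log2, SE 1.14, limma adjusted p 0.0182). Its change to 1 hour differed between NOCIA and CIA animals of the PLA arm by -5.92 (SE 1.14, limma adjusted p 0.0315). For miR-3593-3p the 34-day changes were apart by 2.25 (SE 0.40, limma adjusted p 0.0153). Each test was of the difference itself. Arthritis cannot be told apart from isoflurane at 34 days or from the saline injection at 1 hour. The NOCIA side of each rests on the 2 arrays before therapy. None of the 3 was called with the mean spot signal, normexp, the authors' log2 table or the percentile over all miRNAs, the miR-3593-3p value turned to -0.11 with normexp, and with the replicate number as a block the 1-hour miR-122 value had a limma adjusted p of 0.0521.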

How the results depend on the processing

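Having 2 arrays a group and low signal over background limits the calls, and the 1-hour groups lie on another slide. The slide as a random block was not run: the group means take it up, with every group on a single slide. Counts are given for 1 hour against before therapy (5 calls), 34 days against 1 hour (3), 34 days against before therapy (2), any time (5), miRNAs within 2-fold (77), and the differences of changes to 1 hour (1) and 34 days (2), only where they moved by over 1.5 times. With the authors' table they were 0, 0, 1 and 1, and 0 and 0 for the differences. With only miRNAs detected on all 6 NOCIA arrays all 6 call counts were 0. With a floor at 1 they were 3 at 1 hour and 0 for the 1-hour difference. With the mean spot signal they were 0, 0, 1 and 0, and 0 and 0. With no filter on dim miRNAs they were 372 at 1 hour, 366 at 34 days, 369 at any time, and 353 and 343 for the differences. With no scaling they were 3, 1 and, at any time, 3, and 6 miRNAs were within 2-fold. With normexp all 6 call counts were 0 and 116 were within 2-fold. With only the arrays compared they were 11 and 10 for 34 days, 18 at any time and 6 for the 34-day difference. With the percentile over all miRNAs they were 2 at 1 hour, 4 at 34 days, 0 within 2-fold, and 0 and 0. With quantile normalization they were 3 at 1 hour and 2 for the 1-hour difference. At the study's threshold they were 2, 6 and, at any time, 3, and 1 for the 34-day difference. With undetected values at the floor the 1-hour difference had 2. The causes were not tested.

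With a replicate block the 1-hour difference had 0 calls and 34 days against 1 hour had 4. Deviations of same-numbered arrays correlated at 0.27, 0.43 and 0.40, and the arrays are different animals for which no source says what a shared number marks. Leaving out each array gave 4 to 8 calls at 1 hour (8 without the array before therapy of replicate 2), 2 to 3 for 34 days against 1 hour, 2 to 3 for 34 days against before therapy, 5 to 6 at any time, 56 to 61 within 2-fold, 0 to 3 for the 1-hour difference and 0 to 2 for the 34-day one. The median change over the 210 miRNAs to 34 days was 0.12 (log2), 0.68 with no scaling and 0.37 with the percentile over all miRNAs. Signs turned with the mean spot signal for miR-298 at 1 hour (-0.21) and miR-125a-3p at 34 days (-3.19e-05). With normexp they turned at 1 hour for let-7b* (-0.12), miR-298 (-0.18), miR-3544 (-0.13), miR-3593-3p (-0.039) and miR-125a-3p (-0.00028), at 34 days for miR-3593-3p (-0.26) and miR-125a-3p (-0.40), at 34 days against 1 hour for miR-10a-5p (-0.14) and miR-488 (-0.12), and for the 34-day difference of miR-3593-3p (-0.11). The floor in the "at least" bounds was chosen after seeing the data.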
